A study of Mus musculus with 4 samples.

Results

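The genes described here are 10 lysosomal proteases of the mouse: the cathepsin genes *Ctsa*, *Ctsb*, *Ctsd*, *Ctsf*, *Ctsh*, *Ctsk*, *Ctsl*, *Ctss* and *Ctsz*, and the legumain gene *Lgmn*. They were chosen by gene symbol, as the proteases that cystatins and stefins can meet, and they are 10 of the 24346 genes with a value in each library. Bone marrow (BM) of female C57BL/6J mice aged 6 to 8 weeks was cultured over 4 days to give *in vitro* MDSCs (myeloid-derived suppressor cells), and GM-CSF at 40 ng/ml was present in all cultures. G-CSF at 5 ng/ml was added to 2 cultures (G-CSF) and left out of 2 (Control), and no sorting of cells is named for the sequenced libraries. The study asked how G-CSF changes gene expression in these cells. Whether libraries with the same replicate number came from the same BM is not given in the sources used here.

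Cathepsins are made as inactive precursors, are carried to endosomes and lysosomes, largely by receptors for mannose 6-phosphate, and become active when the acid pH lets their propeptides be cut away. They fall into several catalytic classes. *Ctsb*, *Ctsf*, *Ctsh*, *Ctsk*, *Ctsl*, *Ctss* and *Ctsz* encode cysteine proteases of the papain family. Legumain is a cysteine protease of another family that cuts after asparagine, *Ctsd* encodes an aspartic protease, and *Ctsa* encodes a serine carboxypeptidase, so that 1 of the 10 genes is neither a cysteine nor an aspartic protease. In myeloid cells these enzymes degrade endocytosed protein, cut the invariant chain from MHC class II molecules and help to mature other lysosomal enzymes. Cystatins and stefins block the papain family by occupying the active-site cleft, and some cystatins also block legumain.

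Each library is a table of values taken as FPKM, in which fragment numbers are divided by transcript length and by library depth. Genes may then be compared with each other, but the comparison depends on the transcript lengths used, and the annotation is not given. From the steps of the lowest values, the depth was estimated at 12420000 to 15700000 reads per library. All 10 proteases were among the 12012 genes that had enough reads for a test. *Ctsf* rested on 17 to 24 estimated reads per library and *Ctsk* on 85 to 214, while each of the other 8 genes had at least 1078 in every library. Of the MDSC surface genes, *Itgam*, which encodes CD11b, was lower with G-CSF, at 520 and 515 FPKM in Control and 395 and 416 FPKM with it (log2 fold change -0.35, adjusted p = 0.00567, limma). *Ly6c2* stood between 1000 and 1148 FPKM and did not pass, and *Ly6g* was not analysed here. The sample labels speak of liver in the RNA extraction, but the 4 hepatocyte genes *Alb*, *Apoa1*, *Ttr* and *Apob* were at 0 in all 4 libraries.

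*Ctsd* was the most abundant of the proteases in every library. The Control libraries had 1895.5 and 1891 FPKM and the G-CSF libraries 1645 and 1759 FPKM. On average *Ctsd* made up 46.4% of the summed FPKM of the 10 genes in Control, and 47.8% after G-CSF. *Ctss* and *Ctsz* followed. In Control their ranges overlapped, with 714 and 751 FPKM for *Ctss* and 696 and 723 FPKM for *Ctsz*, whereas with G-CSF both *Ctsz* values (612 and 679 FPKM) were above both *Ctss* values (553 and 547 FPKM). *Ctsb* stood next in both groups. *Ctsh* and *Ctsa* also changed places: *Ctsh*, at 166 and 175 FPKM, was above *Ctsa*, at 143 and 147 FPKM, in Control, and below it with G-CSF, where *Ctsh* stood at 125 and 119 FPKM and *Ctsa* at 131 and 143 FPKM. *Ctsl*, *Lgmn*, *Ctsk* and *Ctsf* closed the order in both groups, with no overlap between neighbours. The range from the first to the last gene was wide, since *Ctsf* had means of only 0.924 ± 0.0665 FPKM (Control) and 0.853 ± 0.337 FPKM (G-CSF; SD, n = 2). *Ctsd*, *Ctss* and *Ctsz* lay at percentiles 98.6 to 99.8 of the genes tested, *Ctsk* at 31.2 to 49.5, and *Ctsf* at 7.2 to 11.4.

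**Figure D1:**
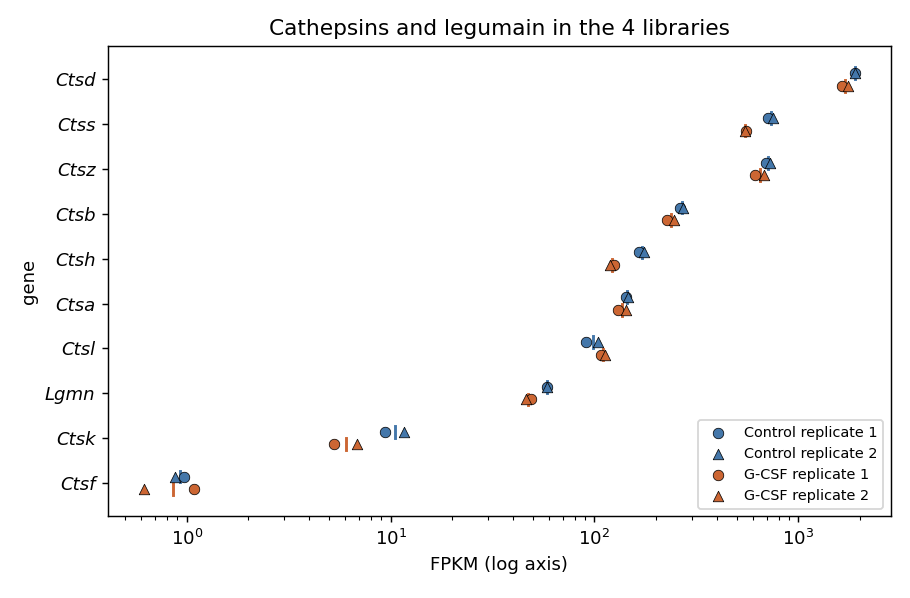
FPKM (log axis) of the 10 protease genes, ordered by their Control mean, with a point for each of the 4 libraries and a short line at each group mean. *Ctsd* stands highest near 1893 FPKM in Control and *Ctsf* lowest near 0.924 FPKM. The orange G-CSF points lie left of the blue Control points for *Ctss*, *Ctsh*, *Lgmn* and *Ctsk*, and also for *Ctsb*, *Ctsd* and *Ctsz*, which did not pass.

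With G-CSF, 4 of the 10 proteases were lower: *Ctsk*, *Ctsh*, *Ctss* and *Lgmn*, with fold changes of 0.578, 0.716, 0.752 and 0.81. The other 6 did not pass the test, and 0 of 10 were called higher. The test was limma's on log2(FPKM + 0.1), and calls were made where the p adjusted over all genes tested (Benjamini-Hochberg) was under 0.05. Among all genes tested, 11.4% were called lower and 12.6% higher, so that the 4 of 10 proteases called lower are to be read against 11.4%. Counts called in the other gene lists below are to be read against the same shares. None of the 10 also had a fold change over 2, which with the adjusted p is the study's own threshold and was met by 1.42% of all genes tested. At an unadjusted p under 0.05, 6 of the proteases were lower and 0 higher, where 18.8% of all genes tested were lower and 20.1% higher. With limma's voom on estimated reads the adjusted counts were also 6 and 0 (14.1% and 14.5% of all genes tested), with 0 past a fold change of 2. The median log2 fold change of the 10 genes was -0.17, beside 0.001 over all genes tested. In 7 of the 10, both G-CSF values were below both Control values, a separation seen in 32.6% of all genes tested. In 1, *Ctsl*, both were above, as in 33.6% of all genes tested.

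The calls rest on limma's trend, which lets the expected spread follow the expression level. Without the trend, 0 of the 10 proteases were called lower, with adjusted p-values of 0.0548 for *Ctsh* and *Ctss*, 0.0675 for *Lgmn* and 0.0779 for *Ctsk*, and 50 of all genes tested were called in place of 2878. These are bulk libraries, in which fewer cells of a type and less RNA per cell cannot be told apart.

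**Figure D2:**
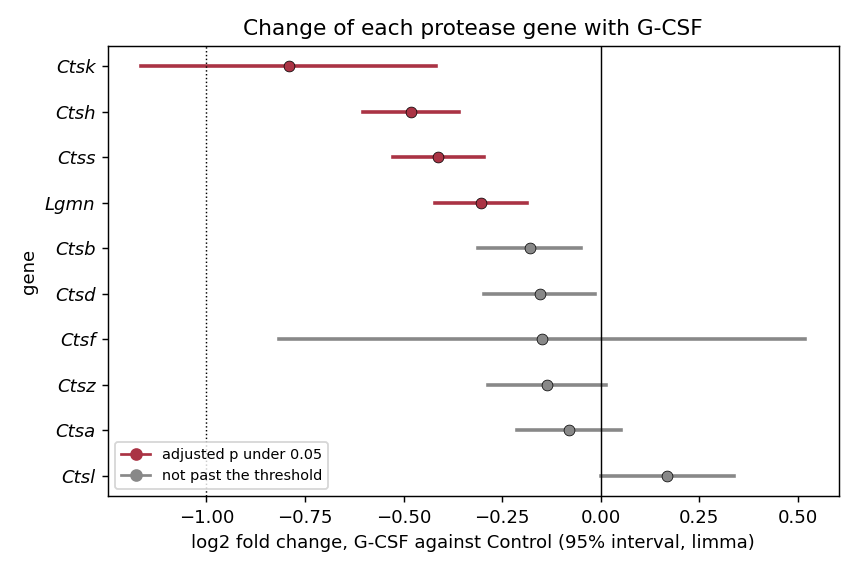
Log2 fold change of each protease gene between G-CSF and Control with its 95% interval from limma (red, adjusted p under 0.05; grey, not past the threshold). *Ctsk*, *Ctsh*, *Ctss* and *Lgmn* lie below 0 with their whole intervals, as do *Ctsb* and *Ctsd*, which did not pass after adjustment. *Ctsl* is the only gene with an estimate above 0, and the dotted line marks a log2 fold change of -1, which no estimate reaches.

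*Ctsk* encodes cathepsin K, an enzyme that cuts collagen and is best known from osteoclasts. It was low, at 9.39 and 11.6 FPKM in the Control libraries against 5.26 and 6.84 FPKM in the G-CSF libraries. The groups did not overlap, although the replicates of each group were further apart, relative to their level, than for the other 3 genes called. Expression fell by 42.2% (log2 fold change -0.79 with a standard error of 0.156, adjusted p = 0.0161). This was the largest change among the 10 genes, and it lost its call when genes with few reads were kept in the fit (adjusted p = 0.0565). Of 6 osteoclast markers, *Calcr* was at 0 in all libraries, 4 were tested and 0 were called in either direction by limma, with 2 lower and 0 higher at an unadjusted p under 0.05, and 1 lower with voom. The summed FPKM of the 6 markers was 44.5 to 47.7 in Control and 37.6 to 40.1 with G-CSF, and its part in the lower *Ctsk* was not tested.

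*Ctss* encodes cathepsin S, which is still active at neutral pH and makes the last cuts in the invariant chain in antigen-presenting cells. As given above, it had 714 and 751 FPKM without G-CSF but 553 and 547 FPKM with it. The G-CSF replicates lay close together and well below Control. It fell by 24.8% (log2 fold change -0.41 with a standard error of 0.048, adjusted p = 0.00485). Among the members of the papain family, *Ctss* was the most abundant in Control, and its share of the summed FPKM of the 10 proteases went from 17.9 ± 0.333% to 15.5 ± 0.736% (SD, n = 2).

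*Ctsh* encodes cathepsin H, mainly an aminopeptidase. Control replicates had 166 and 175 FPKM, and G-CSF replicates 125 and 119 FPKM. Here too the groups were apart by several times the gap between replicates. The gene fell by 28.4%, or -0.48 on the log2 scale with a standard error of 0.0508 (adjusted p = 0.00394). *Ctsh* had the smallest p of the 10 genes and ranked 142 of the 12012 genes tested.

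*Lgmn*, whose product opens some cathepsins and other lysosomal enzymes into 2-chain forms, was at 58.6 and 58.5 FPKM in the Control libraries, compared with 48.7 and 46.2 FPKM after G-CSF. Its Control replicates were nearly equal, and both G-CSF values were lower. The fold change of 0.81 corresponds to -0.30 on the log2 scale, with a standard error of 0.049 (adjusted p = 0.00967). Each of *Ctsk*, *Ctsh*, *Ctss* and *Lgmn* was called lower in all 4 fits that left out a library.

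The other members of the papain family did not pass. *Ctsb*, an endopeptidase that also trims dipeptides from C-termini, was measured at 263 and 273 FPKM (Control) and at 227 and 247 FPKM (G-CSF), values that do not overlap. Its log2 fold change was -0.18 (95% interval -0.31 to -0.05, adjusted p = 0.0566). It stood nearest to the threshold, and passed it with upper-quartile scaling (adjusted p = 0.036), with voom (adjusted p = 0.0232) and without G-CSF replicate 2 (adjusted p = 0.0418). *Ctsz*, which removes single residues from C-termini, also separated the groups, by the values given above, with a log2 fold change of -0.14 (95% interval -0.29 to 0.01, adjusted p = 0.157).

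*Ctsl* encodes cathepsin L, a broad endopeptidase that cuts the invariant chain in cortical thymic epithelium. It was the only one of the 10 genes with an estimate above 0. The Control replicates had 91.3 and 105 FPKM and those with G-CSF 107 and 112 FPKM, so that the latter lay above, but by less than the gap between the Control replicates. The log2 fold change of 0.17 did not pass (95% interval of the fold change 1 to 1.26, adjusted p = 0.129). It did pass when Control replicate 2 was left out (log2 fold change 0.27, adjusted p = 0.0342). *Ctsf*, the lowest of the genes, was at 0.971 and 0.877 FPKM without G-CSF and 1.09 and 0.615 FPKM with it, on both sides of Control. At this depth a change of *Ctsf* was not detectable, with a 95% interval of the fold change from 0.568 to 1.43 (adjusted p = 0.728).

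*Ctsd*, which encodes cathepsin D, the main aspartic protease of lysosomes, had a log2 fold change of -0.15 (95% interval -0.29 to -0.01, adjusted p = 0.102). Both of its G-CSF values were below both Control values, and the gap between the G-CSF replicates was larger than that between the Control replicates. It passed with voom (adjusted p = 0.0247). *Ctsa* encodes protective protein, which also keeps beta-galactosidase and neuraminidase stable in the lysosome. Its values overlapped between the groups, as the values above show, and its fold change of 0.946 had a 95% interval from 0.864 to 1.04 (adjusted p = 0.325). The intervals of *Ctsb*, *Ctsd* and *Ctsz* reach down to fold changes of 0.806, 0.815 and 0.82. A fall of the size of that of *Lgmn* (fold change 0.81) lies within the interval of *Ctsb*. Falls of nearly that size lie within those of *Ctsd* and *Ctsz*.

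Some values could hold reads of other genes. In GENCODE M21, 31.3% of the 75-base windows of *Ctsd* transcripts also occur on the same strand of *Gm49369*, an overlapping gene that was not analysed here, and 24.6% of those of *Ctsl* occur in other genes on either strand, 5.2% on the same strand. A further 11.8% of *Ctsb* and 9.3% of *Ctsa* windows occur on the opposite strand of their neighbours *Fdft1*, and *Neurl2* and *Pltp*. The libraries were stranded, but whether strand was used in counting is not given in the sources used here. *Ctsf*, *Ctsh*, *Ctsk*, *Ctss*, *Ctsz* and *Lgmn* shared 0.0% of their windows, and these include all 4 genes called lower.

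The estimated changes of the 10 genes were not equal, so their measured proportions to each other differed between the groups. Differences in change between the genes were not tested. For each FPKM of *Ctsl*, the Control libraries held 7.82 and 7.17 FPKM of *Ctss*, and the G-CSF libraries 5.15 and 4.87. For *Ctsh* the same ratio was 1.81 and 1.68 without G-CSF, against 1.17 and 1.06 with it. Neither ratio could overlap between the groups. Both G-CSF values of *Ctss* and *Ctsh* were below Control and both of *Ctsl*, which did not pass, were above, as given before. The ratios therefore add no separate support. Within a library a ratio does not depend on how the libraries were scaled. The smallest p that an exact permutation test of 2 libraries against 2 can give is 0.333, so the ratios are given without one. The 7 papain-family genes among the 10 summed to 1939 and 2039 FPKM in the Control libraries, and to 1631 and 1712 FPKM in those with G-CSF. Cathepsins outside the 10 are not in this sum, among them *Ctsc*, at 399 and 406 FPKM in Control and 410 and 403 FPKM with G-CSF.

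The genes of cystatins and stefins, inhibitors of papain-family proteases, went in different directions. Of 17 cystatin and stefin genes listed, 9 were tested, of which 7 were called higher and 1 lower, with a median log2 fold change of 1.76. Without the trend 5 were called higher and 0 lower, so that the call of *Cst3* was lost. All genes called higher except *Cst7* were stefin A genes, so the count rests largely on a group of close copies. The median is the value of *BC117090*, a stefin A gene with very few reads. By estimate it had 2 and 5 without G-CSF, and 11 and 12 after it, where alone it reached the read filter. When 1 FPKM was required in every library, this gene dropped out and 6 of 8 genes tested were called higher. *Cst3*, the secreted cystatin C, fell from 1797 and 1518 FPKM to 1156 and 1053 FPKM (log2 fold change -0.58, adjusted p = 0.00887). *Cstb*, the cytosolic stefin B, had 584 and 591 FPKM without and 491 and 545 FPKM with G-CSF, and did not pass (log2 fold change -0.19, adjusted p = 0.0664). At an unadjusted p under 0.05, and with voom, 7 genes of the list were higher and 2 lower, the 2 being *Cst3* and *Cstb*. *Cst7*, or cystatin F, is carried into lysosomes, where it blocks cathepsins including the one encoded by *Ctsc*. It rose from 32.5 ± 0.914 to 62.4 ± 4.79 FPKM (SD, n = 2; log2 fold change 0.93, adjusted p = 0.00143 with limma), and was picked out for this role after its values were seen. Among the stefin A genes, which act in the cytosol, *Stfa2*, *BC100530*, *Stfa2l1* and *Stfa3* rose with the smallest p-values, with fold changes of 7, 8.42, 3.03 and 9.15. These genes are close copies of each other, so that the share of reads given to each is uncertain.

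Set against the proteases, the summed FPKM of the stefin A genes was 0.344 and 0.291 times that of the 7 papain-family genes in the Control libraries and 2.60 and 2.28 times with G-CSF. *Ctsc* is not among these 7, and with it the ratios would be lower. Together, *Cst3*, *Cstb* and *Cst7* held 1.25 and 1.05 times the FPKM of the same 7 genes in Control, against 1.05 and 0.968 times after G-CSF, and the groups met at 1.05. These are ratios of FPKM between transcripts of different lengths, so their absolute size depends on the lengths used, and the annotation is not given. Whether inhibitor and protease share a compartment was not measured in the libraries.

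**Figure D3:**
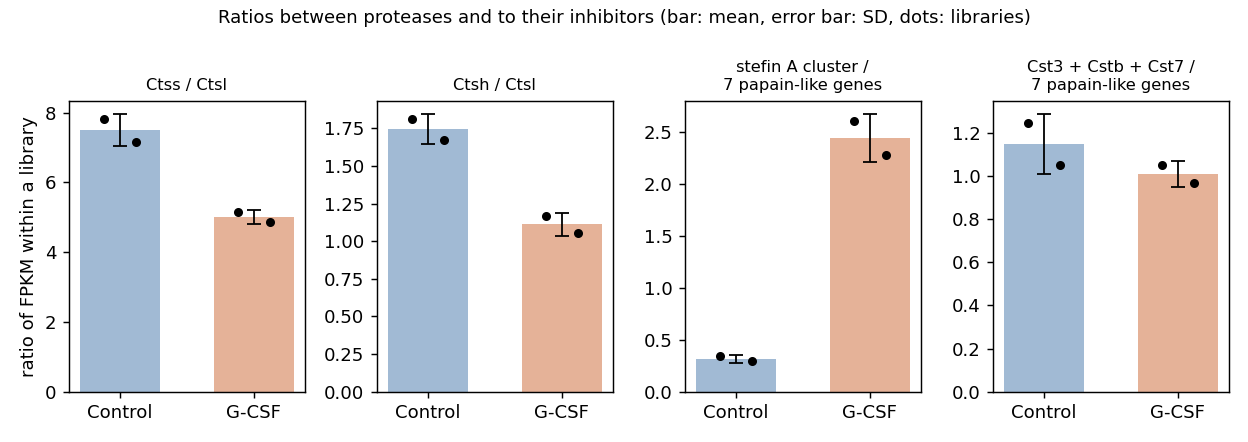
Ratios of FPKM within a library (bars, group mean; error bars, SD of 2 libraries; dots, libraries): *Ctss* to *Ctsl*, *Ctsh* to *Ctsl*, the stefin A genes to the 7 papain-family genes, and *Cst3*, *Cstb* and *Cst7* together to the same genes. The stefin A ratio stands at 0.317 in Control and 2.44 with G-CSF, while the last ratio stands at 1.15 and 1.01 with error bars that reach each other.

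The cathepsins outside the 10 genes included enzymes of granules and of other tissues. Of 14 listed, 8 were at 0 in all libraries and 4 were tested. *Ctsc*, whose product activates granule serine proteases, was at 399 and 406 FPKM without G-CSF and at 410 and 403 FPKM with it, with overlapping groups and a log2 fold change of 0.01 (95% interval -0.09 to 0.12, adjusted p = 0.834). *Ctsg*, a serine protease of primary granules, was the 1 gene called and rose from 106 ± 7.16 to 251 ± 13.7 FPKM (SD, n = 2; log2 fold change 1.25, adjusted p = 0.000361 with limma). Limma called 0 of the 4 lower. *Ctse*, an aspartic protease named here as the 1 gene with an unadjusted p under 0.05 in that direction, was at 2.77 and 2.69 FPKM in Control and 1.30 and 2.11 FPKM with G-CSF, and voom also called 0.

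Partners of cathepsins in MHC class II presentation were lower throughout. All 9 genes of this list were called lower and 0 higher, with log2 fold changes of -1.09 to -0.43 and a median of -0.86. At an unadjusted p under 0.05, and with voom, the counts were also 9 and 0, but without the trend 0 were called lower. The smallest p-values were those of *H2-DMb1* (log2 fold change -0.68, adjusted p = 0.00243) and *H2-DMa* (-0.60, adjusted p = 0.00287), which encode the chaperone that loads peptides, and of the class II chain genes *H2-Ab1* (-1.09, adjusted p = 0.00447) and *H2-Aa* (-0.99, adjusted p = 0.00485). *H2-DMb1* has a close copy, *H2-DMb2*, with which reads may be shared. *Cd74*, which encodes the invariant chain that *Ctss* and *Ctsl* products cut, was named after its values were seen. It fell from 2016 and 1740 FPKM to 1153 and 940 FPKM (log2 fold change -0.85, adjusted p = 0.0057). The change of *Ctss* was the smaller of the pair, and the difference between them was not tested.

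Other proteins of the lysosome gave a reference for the proteases. Of 21 genes, 11 were called lower and 0 higher, with a median log2 fold change of -0.21, beside -0.17 for the 10 proteases. At an unadjusted p under 0.05, 13 were lower and 0 higher, and voom called 12 and 0. The count was 5 when Control replicate 1, Control replicate 2 or G-CSF replicate 1 was left out, and 0 without the trend. Among the smallest p-values were those of *Ppt1*, a palmitoyl thioesterase (log2 fold change -0.53, adjusted p = 0.00224), and of the carboxypeptidase and dipeptidyl peptidase genes *Prcp* (-0.34, adjusted p = 0.00852) and *Dpp7* (-0.38, adjusted p = 0.0126).

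Among 13 genes for sorting to the lysosome and for its transcription factors, 3 were called lower and 0 higher, with a median of -0.04. With an unadjusted p under 0.05 the counts were 5 and 2, as they were with voom. The 3 were *Igf2r*, a mannose 6-phosphate receptor (log2 fold change -0.50, adjusted p = 0.0151), *Tfeb*, a transcription factor of lysosomal genes (-0.30, adjusted p = 0.0358), and *Psap*, the precursor of the saposins (-0.26, adjusted p = 0.0367). The count was 0 without the trend, without Control replicate 1 and without G-CSF replicate 1, and 1 with no filter.

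**Figure D4:**
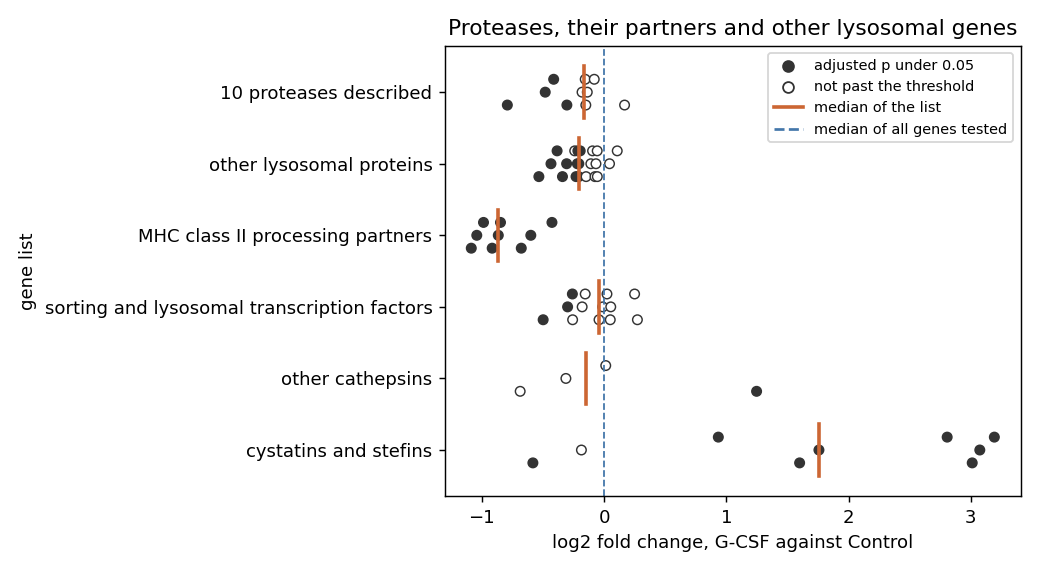
Log2 fold change of the genes tested in each list (filled, adjusted p under 0.05; open, not past the threshold), with the median of the list (orange) and of all genes tested (dashed). The 10 proteases have a median of -0.17, close to the -0.21 of other lysosomal proteins, the MHC class II list lies wholly below 0, and most cystatins and stefins lie above 0.

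Markers of several cell types were lower in the same libraries. In the neutrophil list, 6 of 8 genes tested were called lower, where 11.4% of all genes tested were. The summed FPKM was 8829 to 9594 in Control and 5286 to 5630 with G-CSF. Marker calls were not counted without limma's trend. In the macrophage list, 6 of 9 were lower, with sums of 296 to 303 FPKM in Control and 241 to 252 FPKM with G-CSF. The dendritic cell list had 4 of 7 lower, with 179 to 217 FPKM in Control and 120 to 155 FPKM with G-CSF. Mast cell and basophil genes (4 of 5 lower, 123 to 127 against 78 to 87.2 FPKM) and eosinophil genes (2 of 3 lower, 260 to 338 against 162 to 208 FPKM) went the same way. In these 5 lists limma called 0 genes higher, 0 were higher at an unadjusted p under 0.05, voom called 0, and no marker was at 0 in all libraries. Of the MDSC surface genes 1 of 3 tested, *Itgam*, was lower, and the 3 summed to 1635 to 1675 FPKM in Control and 1405 to 1492 FPKM with G-CSF. B cell, T cell, erythroid and stromal lists summed to at most 3.17 FPKM in any library. The part of these markers in the lower values of *Ctsk*, *Ctsh*, *Ctss* and *Lgmn* was not tested.

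*Ctsk* and *Ctss* are neighbours on chromosome 3 (GRCm38, both on the plus strand), *Ctsk* from 95499256 to 95509362 and *Ctss* from 95526786 to 95556403, with 17423 bases between them. Both were called lower. Of the protein-coding genes that flank them, looked up after this was seen, *Arnt* before *Ctsk* did not pass (log2 fold change -0.14, adjusted p = 0.158), *Hormad1* after *Ctss* had at most 0.061 FPKM, and *Golph3l* beyond it did not pass (-0.08, adjusted p = 0.348). The remaining genes called lower lie elsewhere, *Ctsh* on chromosome 9 (90054152 to 90076089) and *Lgmn* on chromosome 12 (102394084 to 102439813).

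The promoters were read from RefSeq (GRCm38.p6), with 250 bases before and 50 bases after each annotated start. Of the 10 genes, 8 were found, with 10 start sites, and *Ctsb* and *Ctsh* were not searched. The palindrome CACGTG, the core of the sites that TFEB and related factors bind, occurred in 5 of these 10 windows, and in 7.15% of 32851 windows of all genes. The windows belong to *Ctsa*, *Ctsd*, *Ctsf*, *Ctsl* and *Lgmn*, of which *Lgmn* was called lower. The longer TCACGTGA, which contains the first, occurred in the windows of *Ctsa* and *Ctsd* and in 0.974% of all windows. TTCNNNGAA, the spacing that STAT factors bind, occurred in 0 of the 10 windows and in 8.30% of all windows. GAGGAAGT, a form of the PU.1 site, occurred in 1, that of *Ctss*, and in 3.20% of all windows. Every motif was searched on both strands. The match is one of letters only and says nothing of binding in these cells.

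The 30 bases around the palindrome are shown for these 5 genes, to set the flanks of the gene that fell beside those of the genes that did not pass: *Lgmn* (chr12:102439124-102439153, minus strand), *Ctsd* (chr7:142387908-142387937, minus strand), *Ctsa* (chr2:164833743-164833772, plus strand), *Ctsf* (chr19:4855074-4855103, plus strand) and *Ctsl* (chr13:64370739-64370768, minus strand). CACGTG is in capitals, and its first base lies 49, 98, 12, 79 and 236 bases before the start site. The flanks differ on both sides, and only *Ctsd* and *Ctsa* have T before and A after. *Ctsd* holds another CACGTG, 245 bases before the start, and *Ctsa* another just after it. In GENCODE M21 the start sites used here lie inside the annotated gene for all 5 genes. The stretch of *Lgmn* lies in an intron, those of *Ctsd*, *Ctsa* and *Ctsl* overlap annotated untranslated exon sequence, and that of *Ctsf* lies outside transcripts. *Lgmn* and *Ctsa* each have another window, further upstream, that holds no CACGTG.
Lgmn: tggaatgtctgtCACGTGgtccattttata
Ctsd: tcgcccgcgtctCACGTGacccgttgaggg
Ctsa: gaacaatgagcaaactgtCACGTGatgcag
Ctsf: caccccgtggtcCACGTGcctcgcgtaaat
Ctsl: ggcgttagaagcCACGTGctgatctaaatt

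For the neighbouring pair *Ctsk* (chr3:95499150-95499209, plus strand) and *Ctss* (chr3:95526726-95526785, plus strand), both lower with G-CSF, the last 60 bases before the start site lie outside transcripts and hold no CACGTG, and neither does the rest of their windows.
Ctsk: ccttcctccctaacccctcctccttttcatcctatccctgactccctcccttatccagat
Ctss: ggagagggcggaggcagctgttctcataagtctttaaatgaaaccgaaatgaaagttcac

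The pattern of *Ctsk* over the 4 libraries was compared with that of 10475 other genes tested with at least 1 FPKM in every library, by the root mean square distance of the log2 values from their own mean. The nearest were *Hist3h2a* (distance 0.0238), *Cracr2b* (0.0433) and *Adgre4* (0.0492), with log2 fold changes of -0.75, -0.76 and -0.74. With 4 libraries such nearness is a description of these libraries only.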

How the data were processed

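For each of 4 libraries the authors deposited a table of gene values, read here as FPKM from their size and from the tools named. The submitters' processing notes name TopHat2 2.0.13, Bowtie2 2.2.3, SAMtools 0.1.19, Cufflinks 2.2.1 and mm10; the annotation and strand setting are not given in the sources used here. Libraries were stranded, with single reads of 75 bases. FPKM is already divided by depth and length, so reads were estimated from the steps of low values (transcripts of 600 to 4000 bases, up to 8 reads, length less 210 bases): 66.8% of 1899 values lay within 0.05 of a whole read. By chance 10.0% would at a fixed depth and length offset. Both were picked for the highest share, so the shares are not strictly comparable. Lengths and positions came from GENCODE M21 (GRCm38), with 23310 genes matched by symbol, 675 by synonym and 361 unmatched. The test took genes whose transcripts reach 300 bases, with 10 or more estimated reads in 2 libraries and a total of 15 or more.

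Groups and replicate numbers came from the labels. G-CSF was compared with Control by limma 3.58.1 (lmFit, eBayes with trend, two-sided) in R 4.3.3 on log2(FPKM + 0.1), with Benjamini-Hochberg adjustment over all genes tested. Fold changes are on that scale, which understates those of low genes. The 2 libraries of a group are biological replicates per the study, and n is 2 throughout. The members, lists and tests were chosen with earlier results of these data known. Named genes were the 10 proteases, up to 4 genes called with the smallest p in each list, *Cst3*, *Cstb* and *Ctsc*, and the 3 genes nearest to the protease with the largest called change. The other lists were cystatins and stefins, other cathepsins, MHC class II partners, other lysosomal proteins, sorting genes and cell type markers. 1 gene that this rule names is not reported here. A planned comparison of protein sequences was not made. The steps were tested on simulated data. Alternatives covered scaling, pseudocount, filter, trend, voom, a block for the replicate number, and the removal of single libraries. Python 3.11.15, numpy 2.4.6 and pandas 2.3.3 were used.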

Additional observations from a re-analysis of the deposited data

How the results depend on the processing

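The 4 proteases called lower (*Ctsh*, *Ctsk*, *Ctss* and *Lgmn*) became 0 in limma without the trend (50 genes called in all), 0 with a fold change over 2 (171 in all), and 7 with the replicate block (4005 in all), which added *Ctsb* (adjusted p = 0.0119), *Ctsd* (0.0464) and *Ctsz* (0.0469). With no filter 1626 genes were called in all and *Ctsk* was lost. The count of proteases called higher, 0, became 1 (*Ctsl*, adjusted p = 0.0268) with the replicate block. With each library left out in turn, 4 to 5 were lower, 0 to 1 higher, 1507 to 1913 genes were called in all, and the median log2 fold change of the 10 genes ran from -0.231 to -0.185. That of *Ctsf* ran from -0.517 to 0.219, and was above 0 without G-CSF replicate 2. These fits leave a group with 1 library, which is assumed to vary like the other group. The other alternatives kept the direction of each gene they tested, and *Ctsf* was not tested with the filter of 1 FPKM in every library. The labels give both groups the numbers 1 and 2 but do not say that a number marks a shared culture or mouse. Same-numbered libraries deviated together (r = 0.229 across 10476 genes), a check on 2 pairs only, so the fit without the block is the one reported. Depth limits *Ctsf* and, less so, *Ctsk*. Precision otherwise rests on 2 libraries per group.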
